A study of Glycine max with 12 samples.

Results

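Young seeds of soybean (Glycine max), cultivar Williams 82, were compared with vegetative organs of the mature plant. The labels chose the libraries: 3 from whole young seeds and 3 from vegetative organs, 6 of the 12 in the series. The seeds were 0.8 to 1.1 mm long with globular embryos, 2 to 2.5 mm with heart-stage embryos, and 3 to 3.9 mm with cotyledon-stage embryos. The vegetative libraries came from young trifoliate leaves, from roots without nodules and from stem internodes, all taken from a mature greenhouse plant of 3 to 4 months. No treatment, transgene or mutation is named in the labels for any library. Each stage or organ had 1 library. Stages and organs are not replicates of each other, so no test was made and no p-value is given. A gene was reported as different when its lowest value on one side exceeded its highest value on the other.

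A young seed is a composite of the embryo, the endosperm that nourishes it and the maternal seed coat that surrounds both. The seed coat receives sugar and amino acids from the phloem and passes them to the embryo, and in many plants it makes proanthocyanidins. Transcription factors such as LEC1 and ABI3 act in the embryo ahead of and into the main phase of storage protein and oil synthesis. Leaves, roots and stems differ from each other in photosynthesis, transport and wall formation, so a gene that is high in all of them need not have the same role in each. Because the libraries are bulk samples, fewer cells of a type and less RNA per cell cannot be told apart.

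The young seed libraries held 22019637 to 45726019 counts and the vegetative ones 10296612 (stem) to 23347386 (leaf). Levels below are CPM, a count relative to the total of its library, after scaling by trimmed-mean (TMM) factors. They are not divided by gene length, so values are compared between libraries and never between genes. Across 39831 genes, log2(CPM + 1) of the young seeds was alike (Pearson r of 0.910 to 0.973). The vegetative organs were less alike: root and stem had r = 0.831, leaf and stem 0.664, and leaf and root 0.536. Leaf had r of 0.715 to 0.759 with the young seeds, higher than with root or stem. These values are descriptions across genes, which are not independent, and the libraries share gene models and sequencing protocol.

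**Figure D1:**
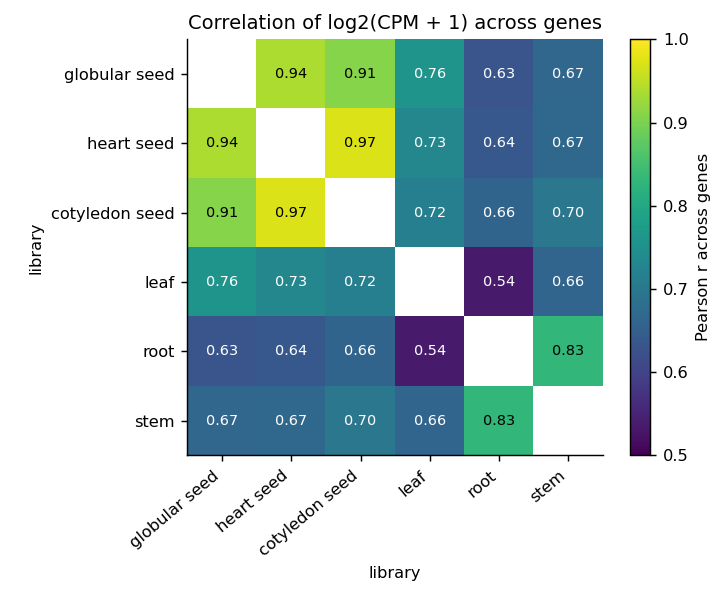
Pearson r of log2(CPM + 1) across 39831 genes for each pair of the 6 compared libraries, on a colour scale from 0.5 to 1. The young seeds form a block at 0.91 or more, root and stem stand at 0.83, and leaf is nearer to the young seeds (0.72 to 0.76) than to root (0.54).

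The globular library held low levels of genes that were abundant at early maturation. In 29 genes chosen as high at early maturation and nearly absent from heart seed, the median globular level was 7.13 CPM per 10000 CPM of early-maturation seed (before TMM scaling; quartiles 6.46 and 8.34). Whether these counts were carried over from older seeds or were low expression at the globular stage was not tested, and the ratio is called the early-maturation share below. For 3 of the 596 seed-high genes described below, it would make up 50% or more of the globular level.

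The locus identifiers of the files are not paired with names in the files or in the RefSeq table used here, where 0 of them were found. Named genes are 74 loci with published assignments in 13 lists, of which 73 were in the count files. For 64 of these 73, a RefSeq gene of the published name or a synonym lies on the same chromosome and within 10 percentage points in gene order. Only these are named below, and the other 9 are counted in their lists. The chromosome is given by the digits before the letter g.

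Of 39831 genes that reached 1 CPM in at least 1 of the 6 libraries, 7368 (18.5%) were higher in all 3 young seeds than in all 3 vegetative organs. The reverse held for 5456 genes (13.7%), which makes 12824 together (32.2%), and the remaining 27007 overlapped. Most of these differences were narrow. The gap is the ratio of the lowest value on the higher side to the highest on the other, with 3 counts as the smallest count allowed. Where a gene had few counts, the count ratio is given as well, which is the same ratio without that floor, with its 95% counting interval. Requiring a 4-fold gap and 1 CPM or more throughout the higher side left 596 genes higher in young seeds (1.50%) and 735 higher in vegetative organs (1.85%). At a gap of 16-fold 177 and 169 genes remained in the respective groups. At 64-fold the numbers were 57 and 19, and at 256-fold 16 and 0, so the widest gaps were all on the seed side. The 50 genes just inside the 4-fold line on the seed side had gaps of 4.01 to 4.33 and the 50 just outside 3.69 to 3.99, so the line cuts through a continuous range.

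The seed-high genes were more even across their own side than the vegetative-high genes. Among the 596, the highest young seed value exceeded the lowest by a median log2 ratio of 1.06, and 124 differed by over 4-fold within the seeds. Among the 735, the median log2 ratio within the vegetative organs was 2.12, and 401 differed by over 4-fold. Over all genes tested the medians were 0.77 for seeds and 1.64 for vegetative organs. All 3 vegetative libraries had 0 counts for 103 of the 596 genes, whereas all 3 young seed libraries had 0 counts for 16 of the 735. Depth bears on this comparison, since 3 counts were worth less CPM in the deeper seed libraries than in stem.

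Heart was the seed stage with the highest value for 259 of the 596 genes, globular for 169 and cotyledon for 168. Over all genes tested, by contrast, globular was highest in at most 44.3% and heart in 27.7%. The globular share includes genes with no counts in any young seed. From globular to heart 74 of the 596 genes (12.4%, against at most 9.42% of all genes) were 4-fold higher or more. In that step 12 (2.01%, against at most 7.70%) were 4-fold lower or more. From heart to cotyledon 6 were higher (1.01%, against at most 7.41%) and 17 lower (2.85%, against at most 5.07%) by that much. Shares of all genes are upper limits here, because a gene with no counts in either stage passed in both directions. None of the 596 was such a gene. A share among the 596 below such a limit is therefore no evidence of a difference. Among the 735 vegetative-high genes stem was the highest of the 3 organs for 369 (50.2%), root for 250 and leaf for 116 (15.8%). Over all genes tested the order was the reverse, with leaf highest in at most 43.9%, root in 29.7% and stem in 26.4%. The leaf share includes genes with no counts in any of the 3 organs. Of the 735, 49 were at least 4 times higher in stem than in leaf and root, 43 were so in root and 8 in leaf. Over all genes tested the shares were at most 3.98%, 7.53% and 11.9%. These are upper limits, because genes with no counts in any of the 3 organs passed for each organ. None of the 735 was such a gene. A rule that asks for a high value in every organ leaves out genes of a single organ, so these numbers are a description.

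The widest gap of all belonged to Glyma07g28940 on chromosome 7, a gene model without a name in the sources used here. It stood at 1798 CPM in globular, 11683 in heart and 13183 in cotyledon seed, against 1 count in leaf, 1 in root and 2 in stem. In the cotyledon library this gene alone took 1.48% of all counts, and it was still at 4708 CPM at early maturation but at 0 counts in dry seed, floral bud and seedling. The next was Glyma06g48270 on chromosome 6, also without a name. Its young seed values lay close together, at 307, 367 and 301 CPM, while leaf and root had 1 count each and stem none. Floral bud held 3.20 CPM of it. On the vegetative side the widest gap was that of Glyma03g28850 on chromosome 3, with 30.7 CPM in leaf, 57.2 in root and 150 in stem against 3, 0 and 1 counts in the young seeds. The seedling had 1392 CPM of this gene, more than any organ of the mature plant compared here.

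Second on the vegetative side was VSPB, Glyma08g21410 on chromosome 8, a vegetative storage protein that soybean keeps in leaves and stems as a store of nitrogen. VSPB stood at 628 CPM in leaf, 423 in root and 1058 in stem, and at 2.09, 0.167 and 0 CPM in globular, heart and cotyledon seed. The gap from root down to globular was 203-fold (95% counting interval 167 to 249). Its relative VSPA, Glyma07g01730 on chromosome 7, did not separate. Of all genes tested, 13.7% were higher in all vegetative organs. VSPA had 10184 CPM in leaf, 509 in stem and 41.6 in root, and root lay just under the globular value of 42.5 CPM. Heart and cotyledon seed had 8.66 and 2.36 CPM of VSPA. With TMM factors from the 6 libraries alone, or with DESeq2 size factors, root passed globular and VSPA separated, so its overlap rests on a margin smaller than the choice of scaling.

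Among the enzymes of flavonoid synthesis, 1 of 6 measured members was higher in all young seeds, 1 was higher in all vegetative organs and 4 overlapped, close to the shares of all genes tested (18.5%, 13.7% and 67.8%). The median log2 difference of seeds over vegetative organs was 0.25 in this list and 0.05 over all genes. The seed-high member was Glyma08g06630 on chromosome 8, from the adjacent pair ANR1 and ANR2. Anthocyanidin reductase makes the flavan-3-ol units of proanthocyanidins. This gene had 170 CPM in globular, 630 in heart and 443 in cotyledon seed, and 1 count each in leaf and root and 0 in stem. Its gap was 602-fold and ranked 3 on the seed side. The count ratio of globular to root was 3632 (652 to 143478), with a single count in root. At early maturation it was at 315 CPM and in the dry seed at 0.944. Its neighbour Glyma08g06640 had at most 0.0837 CPM in these 6 libraries and was not measured. Which of the pair is ANR1 is uncertain, since the published assignment and the RefSeq gene order place the names in opposite order.

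Upstream steps of the same pathway behaved differently. F3'H (Glyma06g21920), the flavonoid 3'-hydroxylase, had 126, 378 and 336 CPM in the young seeds from globular to cotyledon, and 49.5 in stem and 6.51 in root. Leaf, at 206 CPM, lay inside the seed range, so the groups overlapped. CHI1A (Glyma20g38560), a chalcone isomerase, was the vegetative-high member, with 68.2, 122 and 90.6 CPM in leaf, root and stem against 16.9, 24.2 and 18.4 in globular, heart and cotyledon seed. Its gap was 2.82-fold (2.56 to 3.11). The chalcone synthases CHS7 (Glyma01g43880) and CHS8 (Glyma11g01350), which act at the entry of the pathway, were at 279 and 135 CPM in root, the highest of the 6 compared libraries, and at 389 and 175 CPM in seedling. Their seed values of 49.3 to 150 CPM for CHS7 and 25.2 to 79.7 CPM for CHS8 lay within the vegetative range. IFS2 (Glyma13g24200), an isoflavone synthase, had 138 CPM in root and 98.8 in stem but 1.48 in leaf, which fell inside the seed values of 1.21 to 4.13 CPM. Its copy IFS1 was listed at 0 in all 10 count libraries. Where near-identical copies exist, the division of reads between them is uncertain.

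Of the 2 sugar exporters of the SWEET10 type, named SWEET24 and SWEET39 in RefSeq, SWEET10b separated widely. These proteins move sugar out of cells, and in soybean they serve the growing seed. SWEET10b (Glyma08g19580, chromosome 8) had 39.8, 53.2 and 138 CPM in the young seeds in order of stage, 0 in leaf and 1 count each in root and stem. The gap was 141-fold, and the count ratio of globular to stem was 422 (75.6 to 16673). Early-maturation seed reached 677 CPM and floral bud 32.7, while dry seed and seedling had 0 counts. SWEET10a (Glyma15g05470, chromosome 15) had 3.64 CPM in cotyledon seed, 1 count in globular seed and 0 in heart, leaf, root and stem, and so it overlapped. Both reached 1 CPM in young seeds only among the 6 libraries, which favours a seed-high call. Of all genes tested, 18.5% were higher in every young seed.

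**Figure D2:**
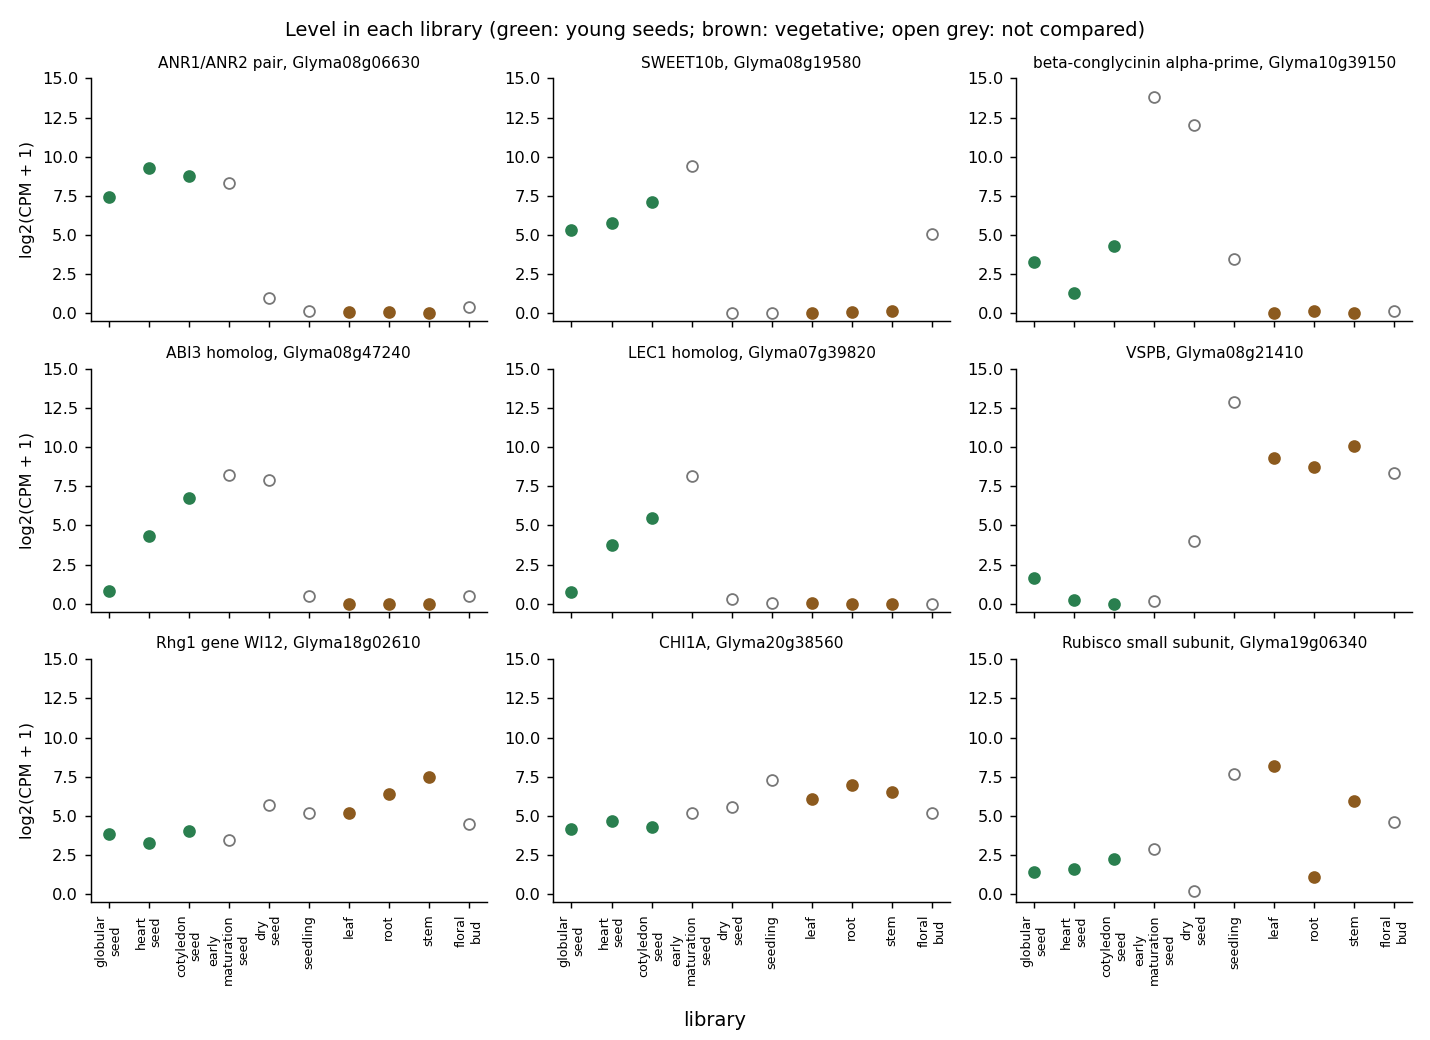
Level of 9 named loci in each of the 10 count libraries, as log2(CPM + 1), with 1 point per library and no error because each has 1 library. Glyma08g06630 and SWEET10b are near 0 in leaf, root and stem at every point, the LEC1 and ABI3 homologs climb through the young seeds, and VSPB shows the reverse of the seed pattern.

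All 4 seed regulators were higher in every young seed than in every vegetative organ, but for none did the gap reach 4-fold with the floor of 3 counts, because the globular level was low. Over all genes tested 18.5% were higher in every young seed. All 4 regulators reached 1 CPM in young seeds only among the 6 libraries, which favours a seed-high call. The list had a median log2 difference of 5.23, with the floor in place of the vegetative counts. The ABI3 homolog Glyma08g47240, which encodes a regulator responding to abscisic acid, had 0.762 CPM in globular, 19.3 in heart and 108 in cotyledon seed. Leaf, root and stem had 0 counts of it, so globular was at least 2.70-fold higher than 3 counts in stem. The LEC1 homolog Glyma07g39820, which encodes part of a DNA-binding complex of the embryo, had 0.702, 12.3 and 43.0 CPM and 1 count in leaf. Its gap was 2.48-fold and its count ratio 15.7 (2.63 to 636). For the other LEC1 homolog, Glyma17g00950, the count ratio was 2.36, and for the other ABI3 homolog, Glyma18g38490, 6.00, both with no gap above the floor. Both intervals, 0.514 to 21.9 and 0.912 to 253, include equality. Heart and cotyledon seed alone stood far above the vegetative organs for these 2 genes, with 215 and 1496 counts of Glyma17g00950 and 12.8 and 59.6 CPM of Glyma18g38490. Once the early-maturation share was subtracted from globular, Glyma17g00950 no longer separated. At early maturation all 4 were above every young seed. The LEC1 homologs Glyma07g39820 and Glyma17g00950 had 285 and 457 CPM there, and the ABI3 homologs Glyma08g47240 and Glyma18g38490 had 292 and 175 CPM.

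Storage proteins were still low at these stages. Of 10 listed loci 4 were measured, and 2 of these were higher in all young seeds, against 18.5% of all genes tested. All 4 reached 1 CPM in young seeds only, which favours a seed-high call, so the comparison with all genes is no support. Without the globular library 1 of them was measured. Beta-conglycinin alpha-prime (Glyma10g39150) was the member that passed the 4-fold gap, with 8.73 CPM in globular, 1.42 in heart and 19.1 in cotyledon seed against 2 counts in root and 0 in leaf and stem. Its gap was 5.03-fold, and the count ratio of heart to root was 15.2 (3.89 to 130). With the share subtracted from globular it no longer separated. Gy1 (Glyma03g32030), a glycinin, was above all vegetative organs by 2 counts each in heart and cotyledon seed, while globular had 4.76 CPM. With the early-maturation share subtracted, or without the globular library, it had under 3 counts in every library left, so no direction is given for it.

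Of 7 measured loci among other seed proteins, 4 were higher in all young seeds, namely LOX3 (Glyma15g03030), both members of the LOX1 and LOX2 pair and the Bowman-Birk inhibitor D-II (Glyma16g33400). The share of all genes tested was 18.5%. All 7 reached 1 CPM in young seeds only among the 6 libraries, which favours a seed-high call. None reached a 4-fold gap. LOX3, a seed lipoxygenase that oxidises polyunsaturated fatty acids, had 1.67, 0.586 and 4.94 CPM in the young seeds and 1 or 2 counts in each vegetative organ, a gap of 2.07-fold and a count ratio of 6.22 (0.946 to 263). The others had 2 to 5 counts in heart seed and no gap above the floor. Their count ratios were 1.79 (0.093 to 105) for D-II and for Glyma13g42320, and 1.56 (0.303 to 10.0) for Glyma13g42310. The intervals of all 4 include equality. D-II and Glyma13g42310 no longer separated with the early-maturation share subtracted. The seed lectin LE1 (Glyma02g01590) overlapped because heart and root each had 3 counts, although cotyledon seed had 13.9 CPM. P34 (Glyma08g12270) had 4.33 CPM in globular seed and 1 count in heart.

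Of 14 measured genes of oil and fatty acid synthesis, 1 was higher in all young seeds and 13 overlapped, against 18.5% and 67.8% of all genes tested. The median log2 difference of the list was 0.49. The seed-high member was an oleosin locus (Glyma20g33850; OLEO1 in RefSeq), a coat protein of oil bodies, with 0.421, 0.167 and 3.67 CPM in the seeds and 0 counts in every vegetative organ. Heart had 4 counts of it, which leaves no gap above the floor, and with the early-maturation share subtracted it no longer separated. The oleosin locus reached 1 CPM in cotyledon seed only among the 6 libraries, which favours a seed-high call. Leaf held the overlap for several of the rest. The linoleate desaturases FAD3A, FAD3B and FAD3C had 15.0 to 25.7, 23.5 to 32.1 and 27.7 to 45.2 CPM in the young seeds, and 17.8, 49.0 and 71.8 CPM in leaf. Root and stem stayed below the seeds, at 0.377 to 4.36 CPM for FAD3A, 9.61 to 12.9 for FAD3B and 1.22 to 3.11 for FAD3C. With leaf set aside, 6 of 13 measured loci were higher in the young seeds: these FAD3 genes, the stearoyl-ACP desaturases SACPD-A and SACPD-B, and the oleosin. The acyltransferase DGAT1A was then vegetative-high. In that setting 34.5% of all genes tested were higher in the young seeds.

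The seed-type oleate desaturases FAD2-1A (Glyma10g42470) and FAD2-1B (Glyma20g24530) had their highest CPM of the 6 libraries in leaf, for FAD2-1B by a narrow margin over cotyledon seed. Leaf stood at 6.86 and 5.02 CPM for FAD2-1A and FAD2-1B, and the seeds at 0.201 to 0.671 and 0.126 to 4.94 CPM. Root and stem had 0.377 CPM or less of either. SACPD-C (Glyma14g27990) showed another division, with at least 21.9 CPM in each young seed, 32.0 in root, 4.15 in stem and 1 count in leaf. The WRI1 homolog Glyma15g34770, a transcription factor that drives fatty acid synthesis, had 0.782, 5.82 and 16.2 CPM from globular to cotyledon seed. Leaf, root and stem had 1.52, 2.34 and 0.943 CPM of it, all above globular and below heart. The acyltransferases DGAT1A and DGAT1B, which make the last step to triacylglycerol, lay between 4.17 and 8.48 CPM in all 6 libraries. With TMM factors from the 6 libraries alone DGAT1A became vegetative-high, and with plain CPM SACPD-B became seed-high.

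Several loci known from nodulation and nematode resistance were vegetative-high by small margins only. NARK (Glyma12g04390), a receptor kinase that limits nodule number, had 88.7 CPM in root and 58.2 in stem but 2.33 in leaf, against 0.421 to 2.19 in the young seeds. Its gap of 1.07-fold between leaf and cotyledon seed (0.722 to 1.57) is within counting error, and NARK overlapped with plain CPM. Of the 5 nodulation receptors measured 2 separated, both as vegetative-high, against 13.7% of all genes tested. Besides NARK this was a locus without a matched name, with 1 count in leaf against 0 in every young seed. Neither call is beyond counting error. The unnamed locus, NFR1b and NFR5a reached 1 CPM in a vegetative library only among the 6 libraries, which favours a vegetative-high call. The comparison with all genes is therefore no support. NFR5a (Glyma11g06740), a receptor for rhizobial signals, was nearly restricted to root among the 6 libraries, with 5.53 CPM against 0 to 4 counts elsewhere. Its copy NFR5b (Glyma01g38560) had 6.14 to 10.4 CPM in the young seeds, 8.52 in leaf and 1.98 in stem.

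Among the loci of nematode resistance, 3 of 4 were higher in all vegetative organs, against 13.7% of all genes tested, and 2 of the 3 had narrow gaps. WI12 (Glyma18g02610), a wound-inducible protein gene of the Rhg1 locus, had 35.7, 82.4 and 180 CPM in leaf, root and stem and 8.49 to 15.4 in the young seeds, a gap of 2.32-fold (2.06 to 2.62). SNAP18 (Glyma18g02590), an alpha-SNAP of vesicle traffic at the same locus, had 63.3 to 79.2 CPM against 38.9 to 54.6, a gap of 1.16-fold (1.07 to 1.25). The serine hydroxymethyltransferase of Rhg4 (Glyma08g11490) had 631 and 826 CPM in leaf and stem and 183 in root, and the seeds 140 to 169. Its gap was 1.08-fold (1.04 to 1.13). These intervals cover counting error only and hold nothing about variation between plants.

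The Rubisco small subunit, which fixes carbon dioxide together with the large subunit, shows why organs were not pooled. Glyma19g06340 had 295 CPM in leaf and 60.0 in stem, but root, at 1.12 CPM, was below the young seeds (1.67, 2.09 and 3.71 CPM). The copy Glyma19g06370 had 310, 42.3 and 0.469 CPM in leaf, stem and root and 1.42 to 3.74 in the seeds. Glyma13g07610 was listed at 0 in all 10 count libraries. These levels mark the leaf library as green tissue. Among the nodulation receptors NFR5a and NARK were highest in root of the 6 libraries. NFR1b (Glyma14g05060) was higher in stem (1.23 CPM) than in root (0.469), and NFR5b lower in root (3.42 CPM) than in leaf (8.52). The list as a whole therefore does not mark root. For stem no marker was listed.

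Of 5 measured genes of light response and flowering 4 overlapped, near the 67.8% of all genes tested. PHYA3 (Glyma19g41210), the phytochrome A of the E3 maturity locus, was higher in all young seeds, at 15.4, 13.3 and 11.1 CPM from globular to cotyledon. Leaf, root and stem had 9.19, 4.92 and 2.64 CPM, and the gap was 1.21-fold (1.01 to 1.45). PHYA2 (Glyma20g22160; E4) overlapped, with 55.8 to 74.5 CPM in seeds and 49.3 to 80.6 in vegetative organs, as did GIGANTEA (Glyma10g36600), a clock protein, with 126 to 147 against 138 to 245. FT5a (Glyma16g04830), a mobile flowering signal, had 1.42 CPM in heart and 2.47 in cotyledon seed and at most 3 counts in each of the other 4 libraries.

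Of 4 reference genes often used to normalise soybean expression, 3 overlapped, near the 67.8% of all genes tested. CYP2 (Glyma12g02790), a cyclophilin, was higher in all vegetative organs, at 402 to 942 CPM against 297 to 364, with a gap of 1.10-fold (1.07 to 1.14). ELF1B (Glyma02g44460), an elongation factor subunit, had 72.8 to 81.6 CPM in seeds and 65.4 to 136 in vegetative organs. The ubiquitous urease Eu4 (Glyma11g37250) was vegetative-high by 1.09-fold (0.975 to 1.21), within counting error. In its list, with raffinose and phytate genes, 4 were measured. Of these 2 were higher in all young seeds (18.5% of all genes tested), 1 was vegetative-high (13.7%) and 1 overlapped. The 2 seed-high loci, without a matched name, had gaps of 1.02-fold (0.918 to 1.14) and 2.92-fold (2.52 to 3.41).

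Libraries outside the comparison were set against the same 6 libraries that chose the genes. Since the rule asked for low values on one side, a share above that of all genes follows in part from the choice. Of the 596 seed-high genes, 582 (97.7%) were also above all 3 vegetative organs at early maturation, against 26.1% of all genes tested. In dry seed this held for 150 (25.2%, against 28.8% of all genes). There 272 of the 596 had 0 counts, as did 6876 of all 39831 genes tested. In floral bud 475 (79.7%) exceeded all vegetative organs, against 18.5% of all genes, and 208 did so by 4-fold or more (34.9%, against 1.89%). In seedling the number was 189 (31.7%, against 14.9%). The median level of the 596 genes was 2.30 CPM in floral bud, 0.258 in seedling and 0.187 to 0.224 in the vegetative organs. The 596 genes took 2.85% of counts in globular, 6.32% in heart and 7.30% in cotyledon seed, which follows from their choice. They took 6.63% at early maturation, 0.677% in floral bud and 0.484% in dry seed.

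The 735 vegetative-high genes were nearly all above the young seeds in floral bud and seedling as well. In floral bud 729 of them (99.2%) were above all 3 young seeds, and in seedling 726 (98.8%), against 33.3% and 39.7% of all genes tested. At early maturation the number was 350 (47.6%, against 29.8%). Of the 735, 71 (9.66%) exceeded the young seeds 4-fold or more there, against 2.16% of all genes. In dry seed 228 were above all 3 young seeds (31.0%, against 34.2%). Their median level was 4.86 CPM in floral bud, 7.99 in seedling, 0.369 at early maturation and 0.0787 in dry seed. All comparisons with these 4 libraries share the same 6 reference libraries and are not independent of each other.

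**Figure D3:**
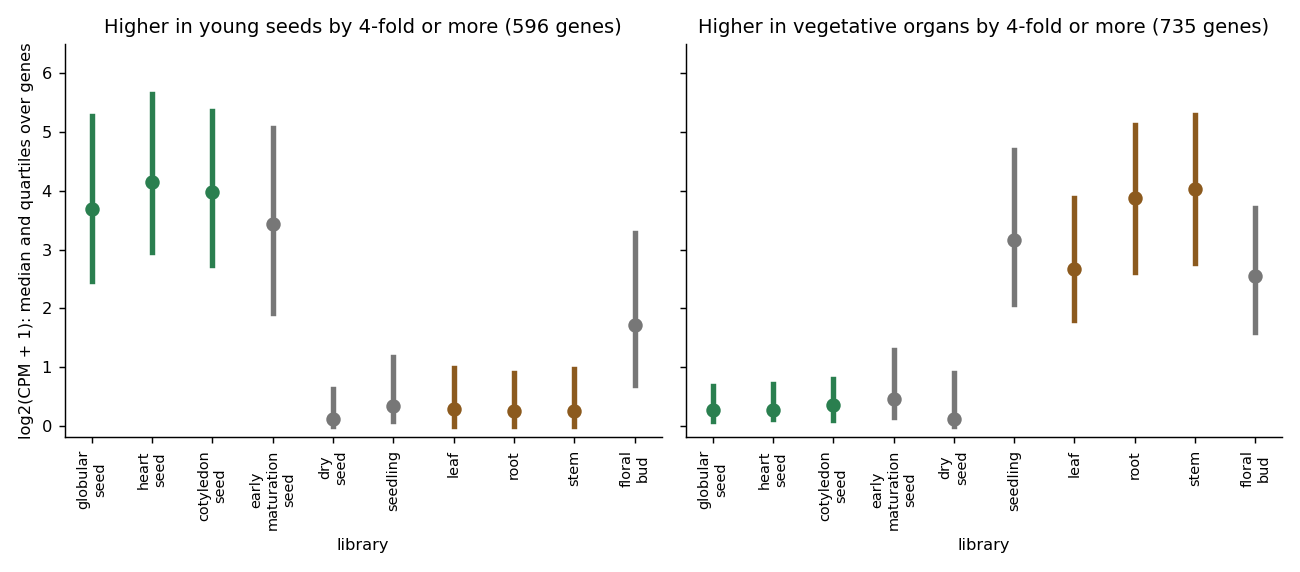
Median (point) and quartiles (bar) of log2(CPM + 1) over the 596 seed-high and the 735 vegetative-high genes in each of the 10 count libraries; green marks young seeds, brown vegetative organs and grey the libraries not used to choose the genes. The seed-high genes stay up at early maturation (median 3.43), are near 0 in dry seed (0.11) and are intermediate in floral bud (1.72).

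**Figure D4:**
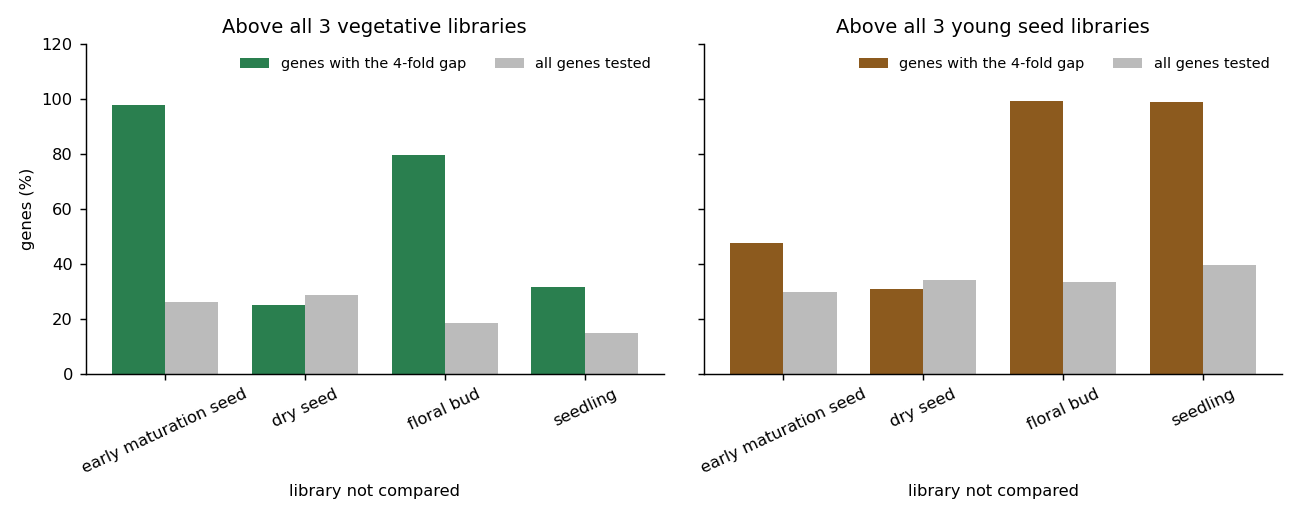
Percent of genes above all 3 vegetative libraries (left, seed-high genes in green) or above all 3 young seed libraries (right, vegetative-high genes in brown) in the 4 count libraries not compared, beside all genes tested in grey. In floral bud 79.7% of seed-high and 99.2% of vegetative-high genes are above the other side, against 18.5% and 33.3% of all genes.

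Genes with a gap lay next to each other more often than other genes did. Among seed-high genes on the numbered chromosomes, 79 of 595 (13.3%) had another seed-high gene as the nearest tested neighbour in identifier order, against 2.81% of the other tested genes. For vegetative-high genes it was 93 of 732 (12.7%) against 3.45%. The longest runs were 3 seed-high genes on chromosome 2 and 4 vegetative-high genes on chromosome 1. Neighbouring copies of a gene can share reads, and the part of shared reads in these runs was not tested. Per chromosome, between 1.08% (chromosome 15) and 2.30% (chromosome 2) of tested genes were seed-high, and between 1.30% (chromosome 17) and 2.36% (chromosome 14) vegetative-high.

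Leaf decided more of the overlap than any other library. Fewer libraries set fewer limits on a gap, and all 4 counts rose with each library left out. Without leaf, 13436 genes were higher in all young seeds and 10879 in the remaining vegetative organs. Genes with a 4-fold gap then numbered 1446 and 2880. Without any other single library the non-overlapping genes numbered 7815 to 8885 on the seed side and 5940 to 7349 on the vegetative side. The globular library limited the seed side most among the seeds: without it 1097 genes had a 4-fold gap, all 596 included. Without root, 1251 genes had a 4-fold gap on the vegetative side.

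**Figure D5:**
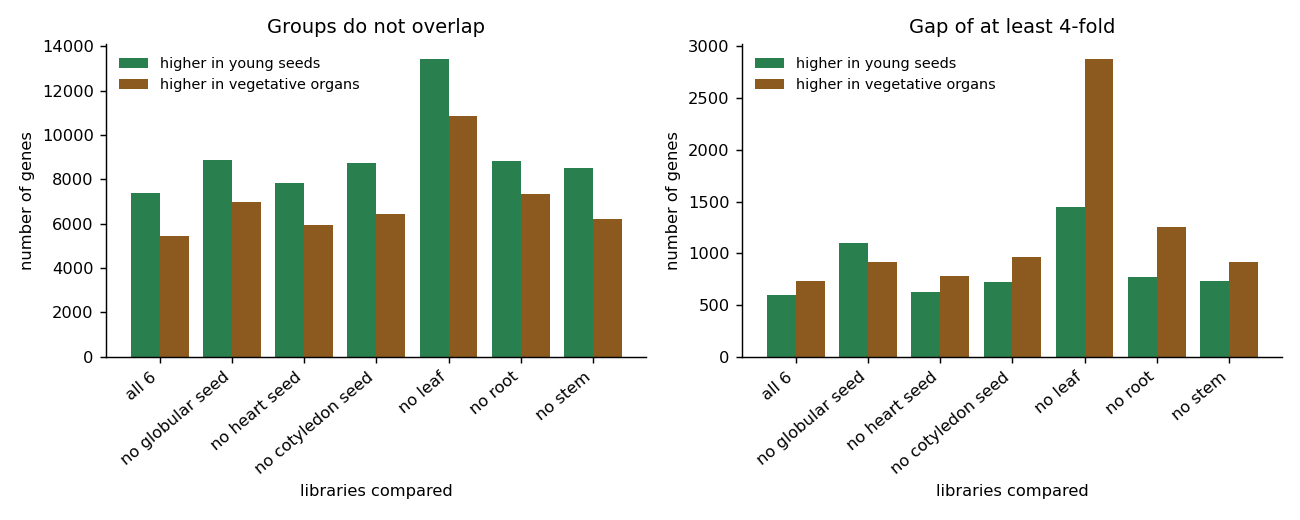
Number of genes whose groups do not overlap (left) and with a gap of at least 4-fold (right), with all 6 libraries and with each left out in turn; green bars are genes higher in young seeds and brown bars genes higher in vegetative organs. Leaving out leaf raises the vegetative-high genes with a 4-fold gap from 735 to 2880, more than any other library does.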

How the data were processed

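Poly-A RNA was sequenced as single-end reads. For 10 libraries the authors deposited raw counts of mapped reads per gene model (66210 models), and Bowtie was used, per the submitters' processing notes. The mid- and late-maturation files hold RPKM, deposited by the authors for genes above 0 only, and were used only as values in the closing section. Tool versions, genome build, annotation and the treatment of multiply mapping reads are not stated by any source available here. Counts were scaled with TMM factors over the 10 count libraries (edgeR 4.0.16, R 4.3.3), and DESeq2 1.42.0 gave alternative size factors. Gaps and tables were computed in Python 3.11.15 with pandas 2.3.3, numpy 2.4.6 and scipy 1.17.1, and the gap calculation was tested on simulated data. Intervals of a gap are exact conditional binomial 95% intervals for 2 counts. Counting error is all that they cover, because each stage or organ had 1 library. Reads copied by PCR do not count molecules independently, so the intervals can be too narrow even for counting error. Where a side had 0 counts throughout, 3 counts in its shallowest library served as a floor. Total counts per library set the precision: 3 counts equal 0.283 CPM in stem. Named genes were all list members plus at most 2 unnamed genes per direction with the widest gaps. Lists drawn from descriptions of genes were dropped, because no identifier was found among 59048 RefSeq genes (assembly Glycine_max_v4.0), and that table gives no sequence, so none is shown. The members and lists were chosen with earlier results of these data known. Alternatives covered scaling, minimum level, size of the gap, each library left out, and the early-maturation share in globular seed.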

Additional observations from a re-analysis of the deposited data

How the results depend on the processing

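The numbers of genes depended on the size of the gap and on the libraries, less on the scaling. A 2-fold gap gave 1361 seed-high and 1433 vegetative-high genes and a 16-fold gap 177 and 169. With each of the 6 libraries left out, non-overlapping genes numbered 7815 to 13436 on the seed side and 5940 to 10879 on the vegetative side. Genes with a 4-fold gap then numbered 626 to 1446 and 781 to 2880. Scaling moved the counts by less than 1.5 times but turned the majority: non-overlapping genes numbered 8959 seed-high and 4695 vegetative-high with plain CPM, 6477 and 6122 with TMM over the 6 libraries, and 6169 and 6346 with DESeq2 size factors. The median log2 difference over all genes was 0.05, and 0.17 with plain CPM and -0.11 with DESeq2 size factors. All 735 vegetative-high genes with a 4-fold gap kept it with TMM over the 6 libraries, and 551 of 596 seed-high genes did. The log2 difference at Gy1 became -0.91 with the early-maturation share removed and -0.60 without the globular library, and with each library left out it ranged from -0.60 to 2.14. The negative values are those of any gene under 3 counts in every library, set by the unequal depths at the floor, and show no reversed direction. A minimum of 5 CPM removed the call of 6 listed loci, which lay below it. The stem library, with 10296612 counts, limits what can be seen as absent: 3 counts are 0.283 CPM there. No paired analysis was possible because each stage or organ has 1 library and the columns carry no replicate numbers.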

Other observations

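The deposited RPKM of mid- and late-maturation seeds, which has its own unit and its own gene models, listed part of both gene groups. Of the 596 seed-high genes, 245 (41.1%) had at least 1 RPKM at mid maturation and 85 (14.3%) at late maturation, against 54.9% and 48.0% of all genes tested. Of the 735 vegetative-high genes, 143 (19.5%) and 103 (14.0%) reached 1 RPKM. At 10 RPKM or more, mid maturation held 78 seed-high genes (13.1%, against 11.6% of all genes) and 16 vegetative-high genes (2.18%). Late maturation held 27 (4.53%) and 26 (3.54%), against 17.0% of all genes. These files were made separately from the counts, so stage and processing cannot be told apart.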
